A study of Mus musculus with 14 samples.

Results

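The response of wild-type mouse embryo fibroblasts (MEFs) to doxorubicin was measured in 6 RNA libraries, chosen by their labels: 3 from cells given 0.2 µg/ml doxorubicin for 6 h and 3 from untreated cells. They are 6 of the 10 RNA libraries and of the 14 samples in the series, which also holds RNA libraries labelled p53-null (2 untreated and 2 treated) and p53 chromatin immunoprecipitation samples. All cells were MEFs of strain 129/Sv, grown in culture without any other agent named by the labels, and the wild-type cells carry no engineered allele per the labels. RNA was selected for poly(A) tails and sequenced from the 3' ends of transcripts. The labels number the replicates 1 to 3 in each group without saying whether they came from separate embryos. The p-values therefore reflect spread between libraries that may be technical in part, although pair 1 differed from the others in Y-linked reads (below). The study asked which genes respond to DNA damage with and without p53.

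Doxorubicin traps topoisomerase II on DNA and causes double-strand breaks. In cells with intact p53 the breaks activate the ATM kinase, p53 is protected from its ubiquitin ligase MDM2, and p53 raises transcription of genes that stop the cell cycle, promote apoptosis, repair DNA and limit p53 itself. The cell-cycle inhibitor p21, encoded by Cdkn1a, keeps the pocket proteins active, which silence genes of DNA replication and mitosis. Embryo fibroblasts are known mainly to arrest rather than to die after such damage.

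Levels are given in CPM, reads of a gene after each library was brought to a common depth, and changes as the log2 fold of CPM plus 0.5, treated minus untreated, with the standard error (SE). A number in brackets after a gene is its log2 fold. The 6 wild-type libraries held 9768164 to 11770448 reads and 13549 to 14547 genes with a read. Same-numbered libraries were treated as pairs, since the deviations from the group means correlated within each pair (Pearson 0.61, 0.36 and 0.70 over 5289 genes) and at 0.03 or lower between numbers. Adjusted p is from this paired limma fit (Benjamini-Hochberg, threshold 0.05), and "unpaired" marks the same 6 libraries fitted without the pairs. Pair 1 stood apart. Its untreated and treated libraries held 166 and 147 reads of 4 Y-linked genes, against 0 to 9 in the other libraries. Pair 1 therefore held male cells that the other libraries nearly lacked. Zyx, which encodes the focal adhesion protein zyxin, read 38.7, 3155 and 3092 CPM in untreated libraries 1 to 3 and 16.6, 1845 and 1246 CPM in treated ones, so that both libraries of pair 1 were far below the others. The 14 fibroblast markers were all detected and summed to 5993, 9420 and 8611 CPM untreated and 5938, 7655 and 8129 CPM treated. The 18 macrophage and blood markers summed to 98.5, 501 and 530 CPM untreated and 46.3, 212 and 242 CPM treated. Of these, 6 of 10 tested passed the paired test as lower (Csf1r, Tyrobp, Lyz2, C1qa, C1qb and C1qc, log2 folds -1.74 to -1.09) and 0 passed unpaired with limma, limma-voom or at an unadjusted p under 0.05. Hbb-b1 and Hba-a1 had no read. In bulk RNA, fewer cells of a type and less RNA per cell cannot be told apart. Endothelial markers summed to 14.1 to 18.1 CPM untreated and 35.4 to 55.7 CPM treated, nearly all of it Eng (1.35), and the part of other cell types in the results was not tested.

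**Figure D1:**
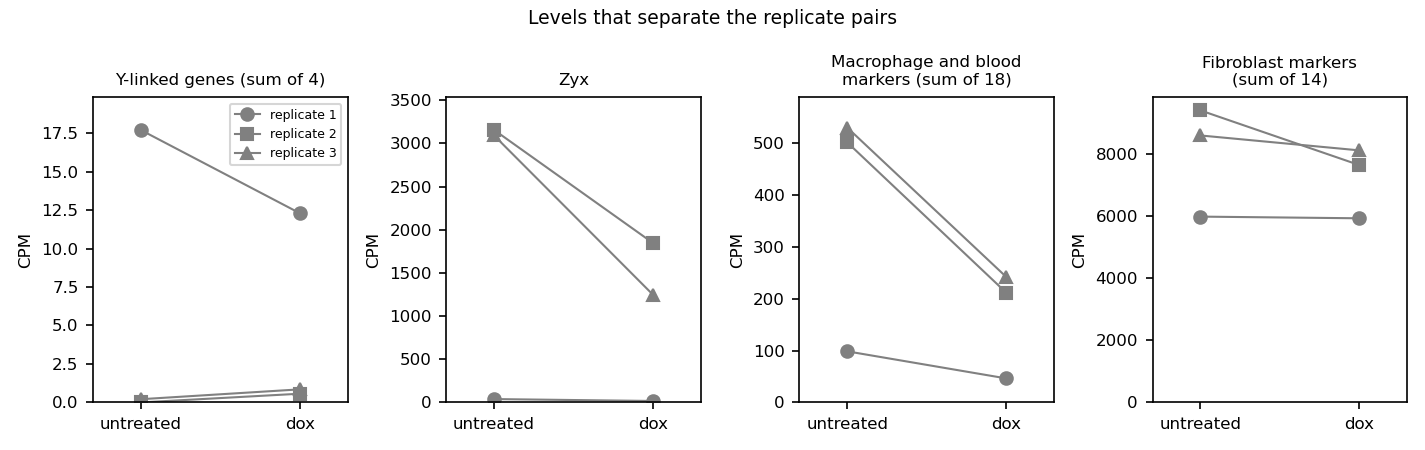
Levels in CPM (y axes) of 4 summed Y-linked genes, of Zyx, of 18 summed macrophage and blood markers and of 14 summed fibroblast markers in the untreated and doxorubicin-treated wild-type libraries, with lines joining libraries of the same replicate number. Replicate 1 is high for the Y-linked genes and lowest for the other panels in both groups.

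Doxorubicin changed the level of 1557 of 10235 tested genes (15.2%), with 918 higher (8.97%) and 639 lower (6.24%). The rises were larger than the falls. The median log2 fold was 1.35 among genes that rose and -1.12 among genes that fell, against -0.01 over all tested genes. A change of at least 4-fold was fitted for 178 genes that rose and 24 that fell, and one of at least 8-fold for 60 that rose and 0 that fell. In CPM the sides were closer, since the genes that rose gained 38632 CPM in sum and the summed difference of those that fell was -42963 CPM. Bringing each library to a common depth partly sets such a balance in advance. The balance moved with the level of the gene. Among genes with a mean log2 CPM under 1, 221 of 1613 rose and 37 fell, whereas at 5 to 7, 146 of 1771 rose and 215 fell.

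All 1557 genes had the same sign in the 3 pairs, which passing a paired test on 3 pairs nearly requires. For 1391 of them the treated and untreated libraries did not overlap (30.7% of all tested genes did not overlap). Unpaired, 778 genes passed (7.6%), 530 higher (5.18%) and 248 lower (2.42%), and all 778 were among the 1557. Without pair 1, 297 of 9776 genes passed (3.04%), 245 higher (2.51%) and 52 lower (0.532%), and without pair 3, 810. Tested only at 5 CPM or more in 2 libraries, 602 genes rose and 586 fell. Of 135 called genes taken by the naming rule, 88 passed unpaired, 51 without pair 1 and 104 without pair 3, and none changed direction in these fits. The 84 that missed the threshold without pair 1 had adjusted p there of 0.0502 to 0.337 (Cnn2). Across the 5289 genes of mean log2 CPM 3 or more, 77.6% had the same sign of fold in pairs 1 and 3, 72.1% in pairs 1 and 2, and 71.0% in pairs 2 and 3. The spread of folds was widest in pair 2, at an SD of 1.07, and narrowest in pair 1, at 0.69.

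**Figure D2:**
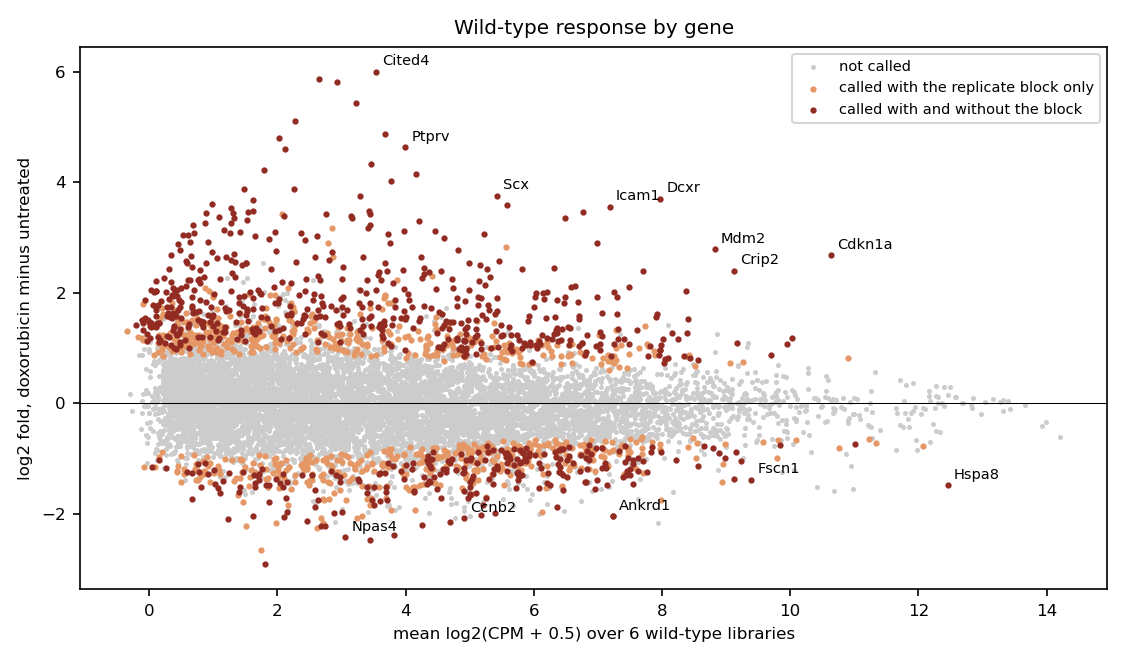
Log2 fold of each tested gene, doxorubicin minus untreated (y axis), against its mean log2 level over the 6 wild-type libraries (x axis). Genes past the threshold are coloured by whether they also passed without the pairs. The tall tail of rises lies at low and middle levels and reaches 6.00 at Cited4.

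Of the tested p53 targets 37 of 78 rose and 6 fell, and Trp53, the gene of p53 itself, did not pass the test. Trp53 read 21.7, 23.8 and 18.7 CPM untreated and 26.3, 20.8 and 39.8 CPM treated, with a log2 fold of 0.38 (SE 0.28, adjusted p = 0.365) and overlapping groups. Cdkn1a read 500.4, 710.4 and 691 CPM in the untreated libraries and 3976, 4431 and 3732 CPM in the treated ones. Every treated library stood far above every untreated one, and the log2 fold was 2.69 (SE 0.17, adjusted p = 0.00203), the largest gain in CPM of any called gene. Mdm2, the ubiquitin ligase gene of the feedback loop, read 132, 180.3 and 212 CPM untreated and 965, 1008 and 1748 CPM treated. The groups did not overlap, treated library 3 was the highest, and the fold was 2.79 (SE 0.17, adjusted p = 0.00186).

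Promoters were searched for the sequence that p53 binds, and 8 windows with a match are shown as examples, taken from p53 targets and the largest rises. The window searched was the 250 bases before each RefSeq start (GRCm38.p6), on both strands, for the standard p53 consensus decamer. Some genes have several starts, with 32851 starts for 27025 genes. A gene counted if any of its starts had a match, and the window shown can belong to any of them. Of the 728 risen genes with a promoter, 2 (Cdkn1a among them) held 2 decamers with 0 to 13 bases between them. The same was found in 1 of 499 fallen genes, in 6 of 8128 tested genes and in 18 of all 27025 genes. Capitals mark the decamer, or for Cdkn1a the stretch from the first decamer to the second. In Cdkn1a the bases directly after the capitals, tgacatgttc, miss the consensus at their first base only. The search for exact matches therefore left them unmarked, and which stretch p53 binds was not tested. Sequences run 5′ to 3′ on the strand of the gene.
Cdkn1a, chr17:29090896-29090947, strand plus: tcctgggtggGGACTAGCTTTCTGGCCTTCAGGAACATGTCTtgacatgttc
Mdm2, chr10:117710925-117710954, strand minus: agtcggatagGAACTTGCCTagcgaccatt
Ccng1, chr11:40755452-40755481, strand minus: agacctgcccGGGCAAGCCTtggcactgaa
Bax, chr7:45467080-45467109, strand minus: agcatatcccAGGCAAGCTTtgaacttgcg
Ppm1d, chr11:85311112-85311141, strand plus: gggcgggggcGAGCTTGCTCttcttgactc
Polk, chr13:96519399-96519428, strand minus: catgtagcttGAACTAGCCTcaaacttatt
Sytl1, chr4:133263309-133263337, strand minus: caaggccccGAGCTAGCCCtgtaggtgag
1700007K13Rik, chr2:28466396-28466425, strand minus: ggaagattctAGACTTGCCTacagctagct

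A decamer was found in 11% of the risen genes with a promoter (80 of 728), in 4.81% of the fallen ones (24 of 499), in 7.06% of the tested genes (574 of 8128) and in 8.2% of all 27025 genes with a promoter. Among risen members of the p53 target lists it was found in 11 of 32 (34.4%). A match describes these letters only, and p53 binding far from the start is outside the window.

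Of 90 genes listed as p53 targets, 78 were tested and 35 of these did not pass, with a median log2 fold of 1.12. Unpaired, 29 rose and 3 fell, and without pair 1, 22 rose. The lists were compiled from genes known as p53 targets, with earlier results of these libraries known, so their direction is no independent evidence.

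Among targets that stop growth, 10 of 15 tested rose and 0 fell (6 of them rose unpaired, 6 without pair 1). Ccng1, encoding cyclin G1, read 4.48, 4.91 and 5.11 CPM untreated and 33.8, 47.7 and 58.5 CPM treated, a fold of 3.11 (SE 0.22, adjusted p = 0.00248). The untreated libraries were close together and all treated ones were higher. Btg2, an antiproliferative gene that is also an early response gene, read 16.1, 16.7 and 20.01 CPM untreated and 81.1, 103 and 79.4 CPM treated (log2 fold 2.28, SE 0.20, adjusted p = 0.00385). Crip2, a LIM domain protein, rose from 319.8, 184 and 239.6 to 1212, 1455 and 1188 CPM, a fold of 2.40. Zmat3, Pml, Gtse1 and Sfn rose by log2 folds between 1.03 and 1.202, with unpaired adjusted p of 0.0527 to 0.139. Plk2 (0.79), Plk3 (0.26), Gadd45a (0.32) and Sertad1 (0.15) did not pass.

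The feedback arm rose at the 3 genes that limit p53 protein, out of 6 tested in that list (3 unpaired, 1 without pair 1). Beside Mdm2, Ppm1d, the WIP1 phosphatase, read 21, 10.4 and 13.03 CPM untreated and 46.9, 41.4 and 35.5 CPM treated, a fold of 1.50 (SE 0.23, adjusted p = 0.016). Rchy1, the ubiquitin ligase PIRH2, read 1.49, 1.18 and 1.56 CPM untreated and 3.68, 3.64 and 3.68 CPM treated, a fold of 1.13 (SE 0.23, adjusted p = 0.0291). For both genes every treated library lay above every untreated one, though without pair 1 the adjusted p was 0.0586 and 0.0994. Mdm4 and Trp73 were too low to test.

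Of the apoptosis targets, 11 of 19 tested rose and 0 fell (9 rose unpaired and 8 without pair 1). Bbc3, which encodes PUMA, read 5.01, 4.31 and 6.46 CPM untreated and 21.7, 34.1 and 34.4 CPM treated (log2 fold 2.40, SE 0.25, adjusted p = 0.00563). Pmaip1, which encodes NOXA, had 1 read in the untreated libraries and 110 in the treated libraries, 97.0-fold higher after scaling to depth (exact 95% counting interval 17.0 to 3865). The death receptor gene Fas went from 3 to 58 reads, a ratio of 17.0 with an interval of 5.55 to 85.1. With so few untreated reads, Pmaip1 and Fas could be tested only through their treated libraries. Bax, the pore-forming effector, read 42.7, 29.2 and 28.8 CPM untreated and 74.4, 93.2 and 52.2 CPM treated. Its groups did not overlap and its fold was 1.10 (SE 0.23, adjusted p = 0.0318), which was lost unpaired (0.0622) and without pair 1 (0.0939). Trp53inp1 (2.70), Ei24 (2.31), Eda2r (2.22), Perp (2.03), Siva1 (1.17) and Zmat3 also rose. Trp53inp1 and Eda2r were below 1 CPM in every untreated library. They too could be tested only through treated libraries, and so only as rises, and the count of rises includes them. Apaf1 (0.92), Tnfrsf10b (1.48), Bnip3l (1.11), Aen (0.57) and Phlda3 (0.67) did not pass.

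DNA repair targets were divided, with 3 of 11 tested higher and 3 lower (2 and 1 unpaired). Without pair 1, 0 passed with limma and 5 had an unadjusted p under 0.05. Polk, a translesion polymerase, read 74.3, 46.02 and 42 CPM untreated and 149.8, 134 and 103 CPM treated (log2 fold 1.28, SE 0.18, adjusted p = 0.014). Ercc5, the XPG nuclease of nucleotide excision repair, read 15.2, 16.7 and 14.5 CPM untreated and 81.9, 36.1 and 62.4 CPM treated (log2 fold 1.85, SE 0.29, adjusted p = 0.0168). In both genes all treated libraries were above all untreated ones, but the adjusted p without pair 1 was 0.0635 and 0.0704. Rps27l rose by 1.16 (unpaired adjusted p = 0.0506). The uracil glycosylase gene Ung fell by a fold of -1.37 (SE 0.28, adjusted p = 0.0285), and Fancc (-1.19) and Gadd45g (-0.74) fell in the paired fit only. In the wider list of damage checkpoint and repair genes, 2 of 30 tested rose and 3 fell (1 and 1 unpaired). These shares are near the 8.97% and 6.24% of all tested genes. Without pair 1, 0 of the 30 passed with limma and 10 had an unadjusted p under 0.05. Msh6 rose (log2 fold 1.60, SE 0.23, adjusted p = 0.014) and the histone gene H2afx fell (log2 fold -1.05, SE 0.19, adjusted p = 0.0216).

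Metabolic targets gave 7 rises in 17 tested and 0 falls, and all 7 also rose unpaired (6 without pair 1). Dcxr, encoding L-xylulose reductase, read 52.8, 71.2 and 87.2 CPM untreated and 867, 1128 and 757 CPM treated. All treated libraries were far above all untreated ones, with a log2 fold of 3.70 (SE 0.23, adjusted p = 0.00186). Fdxr, the ferredoxin reductase of mitochondria, read 22.7, 20.1 and 19.4 CPM untreated and 78.1, 81.9 and 58.5 CPM treated (log2 fold 1.78, SE 0.19, adjusted p = 0.00586). Aldh4a1 (2.56) of proline breakdown, the thiamine transporter gene Slc19a2 (2.29), the stress sensor gene Sesn2 (2.26), Lpin1 (2.23) and Cpt1c (2.01) rose as well. Aldh4a1 was below 1 CPM in every untreated library, so it could be tested only as a rise. Gls2 (1.65), Acad11 (1.45) and Ephx1 (1.36) had positive folds that did not pass, and Sco2 had -1.32, also short of the threshold.

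Secreted and surface targets were mixed, with 5 of 13 tested higher and 3 lower (3 and 2 unpaired, 2 higher without pair 1). Gdf15, a stress-induced member of the TGF-beta family, read 1.92, 2.96 and 2.08 CPM untreated and 31.8, 29.9 and 23.4 CPM treated, a fold of 3.36 (SE 0.24, adjusted p = 0.00248). Icam1, the leukocyte adhesion molecule gene, read 27.2, 52.96 and 50.9 CPM untreated and 365, 617 and 554 CPM treated (log2 fold 3.56, SE 0.16, adjusted p = 0.000907). For both the groups were fully apart. Among the genes that fell were Thbs1 (log2 fold -1.09, SE 0.16, adjusted p = 0.0148) and the macrophage growth factor gene Csf1 (log2 fold -0.98, SE 0.17, adjusted p = 0.0207, unpaired 0.0764). Thbs1 read 284, 283 and 256 CPM untreated and 123, 123 and 138 CPM treated.

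**Figure D3:**
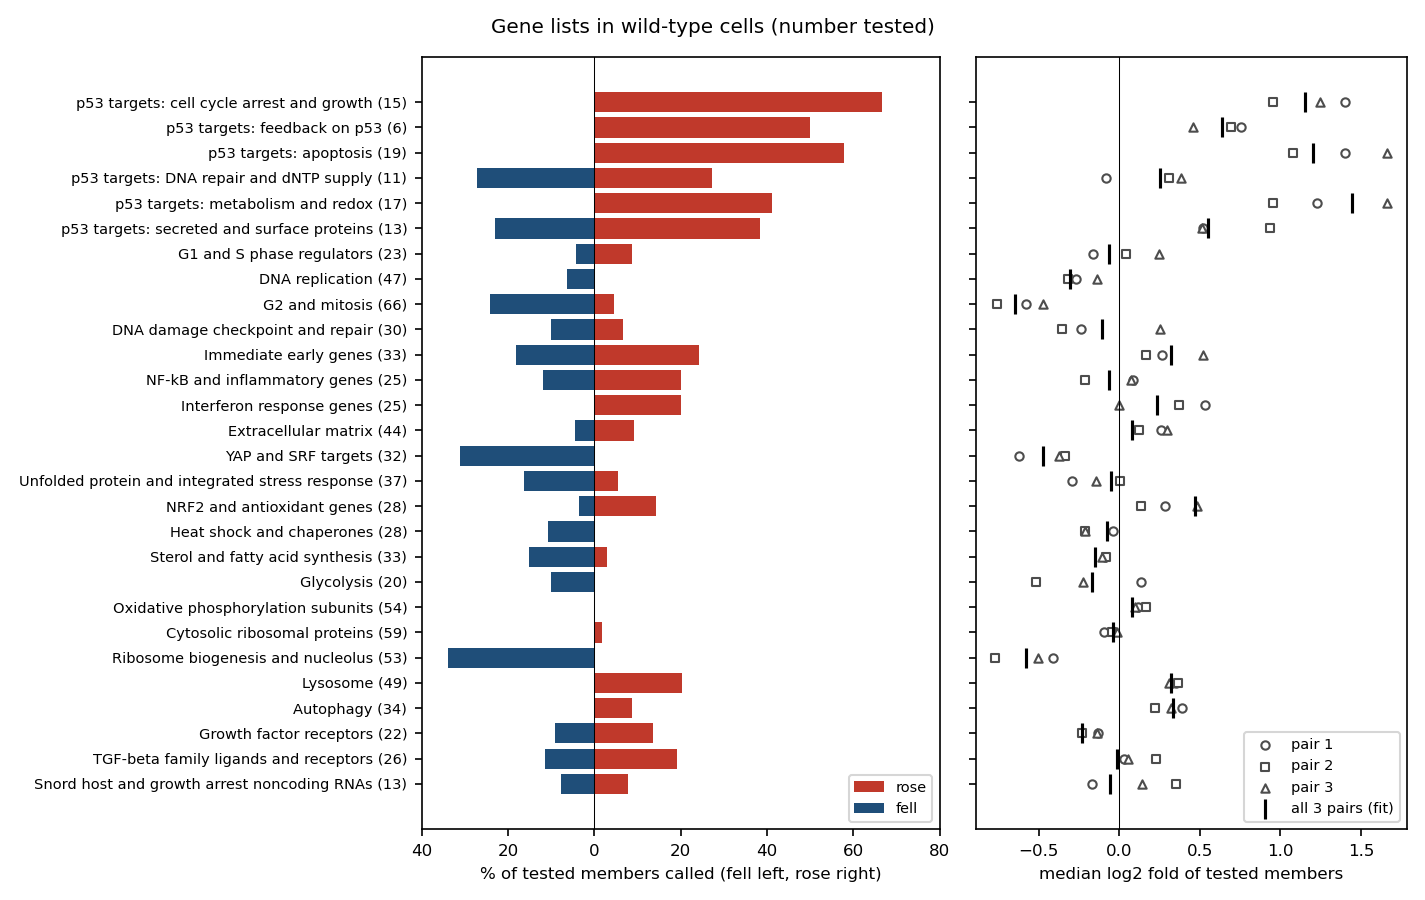
Share of tested members that rose or fell in each of 28 gene lists (left, percent, with the number tested in brackets) and the median log2 fold of tested members in each pair and in the fit (right). The 6 p53 target lists hold the largest shares of rises, and the ribosome biogenesis and the YAP and SRF lists the largest shares of falls, followed by the DNA repair targets of p53 and the G2 and mitosis list.

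The 12 largest rises at a mean log2 CPM of 3 or more included Dcxr, Icam1 and Ptprv of the p53 target lists. Cited4, a coactivator that binds CBP and p300, read 1.39, 0.931 and 0.625 CPM untreated and 96.3, 99.9 and 81.8 CPM treated, a fold of 6.00 (SE 0.22, adjusted p = 0.000907). Sytl1, an effector of RAB27 in vesicle traffic, read 1.28, 2.37 and 2.08 CPM untreated and 59.5, 75.4 and 72.1 CPM treated (log2 fold 4.87, SE 0.21, adjusted p = 0.000907). Both were close to silent before treatment in all 3 libraries and alike across the treated ones. Ptprv, a receptor-type tyrosine phosphatase gene and listed p53 target, read 2.77, 2.45 and 2.92 CPM untreated and 92.3, 77.9 and 68.7 CPM treated (log2 fold 4.63, SE 0.21, adjusted p = 0.000907). Its folds within the pairs were 4.83, 4.73 and 4.34. Tbc1d2, which encodes a GTPase-activating protein of RAB7, read 3.30, 2.37 and 3.13 CPM untreated and 38.5, 75.7 and 55.8 CPM treated (log2 fold 4.01, SE 0.30, adjusted p = 0.00281).

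Others of the 12 largest rises were Klrg2 (3.74) and Cox6b2, the testis form of a cytochrome oxidase subunit, which read 23.2, 9.05 and 10.9 CPM untreated and 203, 165 and 133 CPM treated (3.59). Several lie over other genes in the RefSeq annotation, and without strand their reads cannot be separated. The hyaluronidase gene Hyal1 (log2 fold 4.14, SE 0.20, adjusted p = 0.000907) overlaps Hyal3 and Naa80. Scx, encoding the tendon factor scleraxis, lies within Bop1, and its reads were 12.3, 7.70 and 14.6 CPM untreated and 182, 102 and 207 CPM treated (log2 fold 3.76, SE 0.17, adjusted p = 0.000907), whereas Bop1 had a fold of -0.41 that did not pass. The same limit holds for Ptprv with Ptpn7, Tbc1d2 with Gm31850 and Gm42281, 1700007K13Rik (5.43) with Mrps2, and 4432412L15Rik (4.32), now named Palm3, with Il27ra. All 12 passed in each of the 14 alternative fits, those without a pair included. Passing unpaired was a condition of their choice, so the unpaired fit adds no support.

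**Figure D4:**
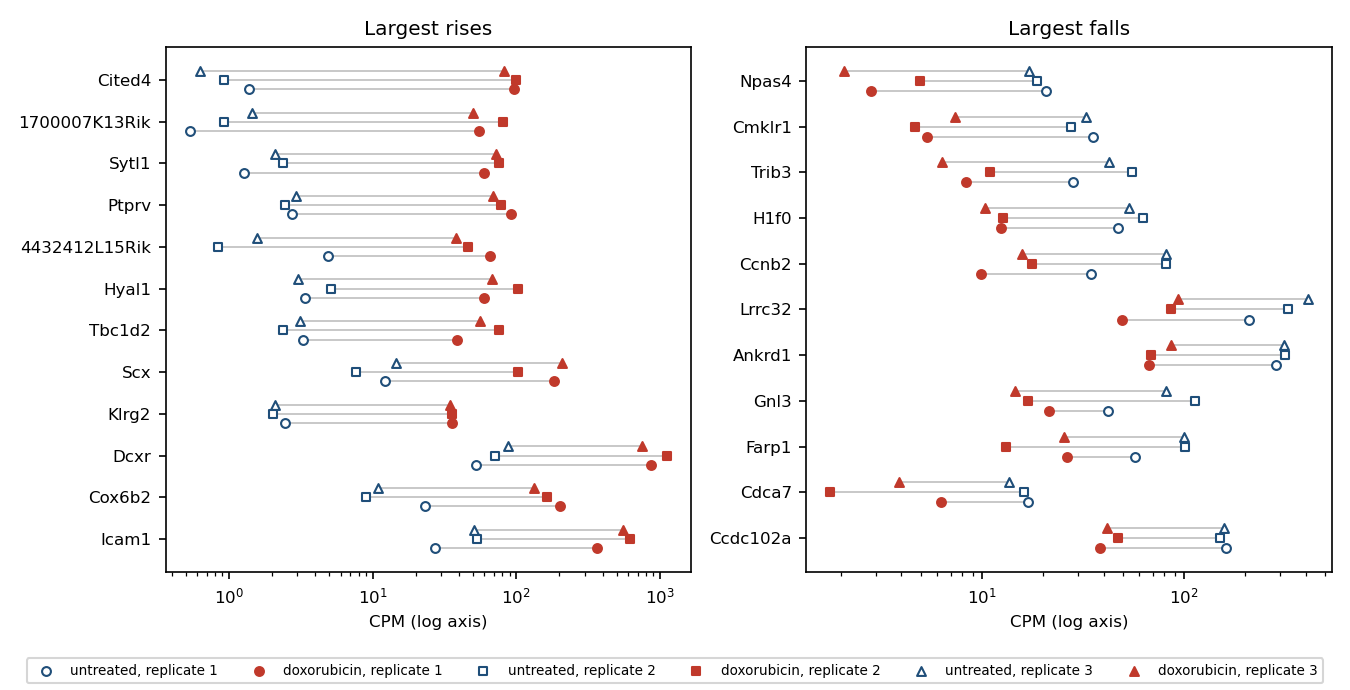
Level in CPM (log axis) of the 12 largest rises (left) and of 11 of the 12 largest falls (right) in each wild-type library, with lines joining the libraries of a pair. Open blue symbols are untreated and filled red symbols are treated libraries. The colours do not overlap for any gene shown, which the rule for choosing these genes required.

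Some genes were nearly silent before treatment. Of the genes that rose, 36 had at most 3 reads over the 3 untreated libraries. Such genes could reach 1 CPM only in treated libraries, so the filter set their direction in advance. The number of tested genes with so few untreated reads is not given, and the ratios below describe the reads only. Ppp2r2c, a regulatory subunit gene of protein phosphatase 2A, had 0 reads untreated and 143 treated, at least 42.0-fold higher against a floor of 3 reads over the group. Klhdc7a went from 2 to 231 reads (ratio 102, interval 27.9 to 846). St14, which encodes the membrane protease matriptase, went from 2 to 202 reads (ratio 89.0, interval 24.3 to 740). Ckmt1, a mitochondrial creatine kinase, went from 1 to 200 reads (ratio 176, interval 31.3 to 6999), but its treated libraries ranged from 14 to 117 reads. BC037703 (3 to 185 reads) and Prrg4 (2 to 151 reads) followed. Intervals are exact at 95% and cover counting error only.

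The 10 largest gains in CPM included Cdkn1a, Mdm2, Crip2, Dcxr and Icam1, with folds of 2.40 to 3.70, and the other 5 had folds of 0.82 to 2.04. Ctsd, the lysosomal protease cathepsin D, read 1238, 1526 and 1566 CPM untreated and 2198, 3205 and 2311 CPM treated (log2 fold 0.82, SE 0.17, adjusted p = 0.0289). Sh3bgrl3 read 822, 614 and 661 CPM untreated and 1519.6, 1798 and 1419 CPM treated (log2 fold 1.18, SE 0.18, adjusted p = 0.0168). Hras1, the gene of the GTPase HRAS, read 686, 654 and 696 CPM untreated and 1299.8, 1797 and 1238 CPM treated (log2 fold 1.07, SE 0.18, adjusted p = 0.0197). None of these groups overlapped. Pmm1, a phosphomannomutase, rose by 2.04 and the copper chaperone gene Atox1 by 0.88. Unpaired, Ctsd had an adjusted p of 0.0596, and without pair 1 the values for Ctsd, Sh3bgrl3, Hras1 and Atox1 were 0.0814 to 0.191.

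The falls included genes of cell division. In the G2 and mitosis list 16 of 66 tested genes fell and 3 rose, with a median log2 fold of -0.65 (6 fell and 2 rose unpaired, 3 fell and 1 rose without pair 1). Ccnb2, encoding cyclin B2 of the mitotic kinase, read 34.6, 81.6 and 81.1 CPM untreated and 9.95, 17.8 and 15.8 CPM treated (log2 fold -2.08, SE 0.20, adjusted p = 0.00487). All treated libraries were below all untreated ones, and pair 1 was the lowest in both groups. Plk1, the polo-like kinase of mitotic entry, read 35.6, 94.1 and 94 CPM untreated and 11.7, 31.6 and 23.9 CPM treated. Its treated libraries were all lower, and its fold of -1.69 (SE 0.19, adjusted p = 0.00691) was lost unpaired (0.086). Cdca8, the borealin subunit of the chromosomal passenger complex, read 62.6, 124 and 90.04 CPM untreated and 25.3, 43.2 and 25.9 CPM treated (log2 fold -1.53, SE 0.19, adjusted p = 0.00854). Espl1, encoding separase, had a fold of -1.52, the condensin gene Ncapd2 -1.40, Kif2c -1.48, Kif4 -1.71, Aurka -1.30, Mybl2 -1.08 and Top2a, the target of doxorubicin, -1.02. Of these 7, Kif2c, Kif4 and Aurka did not pass unpaired (adjusted p of 0.0524 to 0.386).

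A few members went the other way. Ckap2, a spindle and microtubule protein gene, read 5.44, 4.31 and 3.44 CPM untreated and 22.3, 19.97 and 16.4 CPM treated (log2 fold 2.04, SE 0.21, adjusted p = 0.00573). Spc25, of the kinetochore NDC80 complex, rose by 1.40, and Gtse1, which is also a p53 target, by 1.13. Ccnb1 (0.64), Cdc20 (-0.43), Cenpf (0.05) and Ccna2 (-0.81) did not pass. Of DNA replication genes 3 of 47 tested fell (Tk1 -0.93, Pold1 -1.33 and Gmnn -1.73) and 0 rose, with a median of -0.31. That share of falls is near the 6.24% of all tested genes. Pold1 alone of these passed unpaired. G1 and S phase regulators gave 2 rises, the pocket protein genes Rbl2 (log2 fold 1.74, SE 0.22, adjusted p = 0.00951) and Rb1 (log2 fold 1.48, SE 0.34, adjusted p = 0.0393), and 1 fall, Ccne1 (log2 fold -1.11, SE 0.17, adjusted p = 0.0164), in 23 tested, near the shares over all tested genes. Ccne1 overlapped between groups, at 216, 105 and 133 CPM untreated and 113, 41.4 and 63.3 CPM treated, and had an unpaired adjusted p of 0.161. Without pair 1 the adjusted p of Rbl2, Rb1 and Ccne1 was 0.0502 to 0.0824.

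Promoters of mitotic genes are known for a CHR element, TTTGAA, beside CCAAT boxes. These are the windows of 3 fallen mitotic genes that hold both within the 250 bases, with both motifs in capitals on either strand (ATTGG is CCAAT on the other strand).
Ccnb2, chr9:70421561-70421731, strand minus: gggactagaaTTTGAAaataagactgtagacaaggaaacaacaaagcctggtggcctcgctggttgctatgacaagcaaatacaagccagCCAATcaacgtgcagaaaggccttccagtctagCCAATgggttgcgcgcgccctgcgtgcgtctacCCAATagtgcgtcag
Espl1, chr15:102296239-102296281, strand plus: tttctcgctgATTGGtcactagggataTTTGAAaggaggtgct
Ncapd2, chr6:125191620-125191773, strand minus: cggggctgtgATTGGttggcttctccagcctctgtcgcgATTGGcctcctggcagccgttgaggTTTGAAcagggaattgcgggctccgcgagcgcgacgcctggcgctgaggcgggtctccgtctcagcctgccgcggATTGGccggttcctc

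TTTGAA was found on either strand in 6 of the 15 fallen mitotic genes with a promoter (40%), in 20 of the 56 tested ones (35.7%) and in 12.2% of all tested genes (18.3% of all genes with a promoter). CCAAT was found in 13 of the 15 (86.7%), in 39 of the 56 (69.6%) and in 40.7% of all tested genes. Both were present in 5 of the 15 (33.3%), in 18 of the 56 (32.1%) and in 5.65% of all tested genes. The share with both was thus much the same in the fallen mitotic genes as in all tested ones of the list. Over all 499 fallen genes the shares were 10.2% for TTTGAA and 40.5% for CCAAT. The motifs were counted separately, and matches can overlap each other.

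Ribosome biogenesis had the highest share of falls among the 28 response lists, 18 of 53 tested with 0 that rose and a median of -0.58 (11 unpaired, 2 without pair 1). Gnl3, encoding nucleostemin, read 42, 113 and 81.1 CPM untreated and 21.5, 16.98 and 14.5 CPM treated (log2 fold -2.03, SE 0.36, adjusted p = 0.0216), and its reads overlap Glt8d1 and snoRNA genes. Nolc1, a nucleolar chaperone of snoRNPs, read 193, 183 and 174 CPM untreated and 84.6, 62.02 and 60.9 CPM treated (log2 fold -1.42, SE 0.17, adjusted p = 0.00837). Ppan, an assembly factor of the large subunit, read 272, 274 and 276 CPM untreated and 117, 145 and 100.1 CPM treated (log2 fold -1.196, SE 0.18, adjusted p = 0.0147). In these 3 genes the groups did not overlap, and Ppan varied little before treatment. Polr1b (-1.75) and Polr1a (-0.85), subunits of RNA polymerase I, the snoRNP genes Dkc1 (-1.48) and Nop56 (-1.43), Wdr43 (-1.17), Bysl (-1.22) and Nop2 (-1.31) fell too. Npm1 (0.25), Ncl (-0.22) and Fbl (-0.58) did not pass. Without pair 1 the adjusted p of Nolc1, Wdr43, Bysl and Ppan was 0.0561 to 0.092. The genes of the ribosome's own proteins gave 1 rise, Rpl7 (log2 fold 1.24, SE 0.20, adjusted p = 0.0174, unpaired 0.0679), and 0 falls in 59 tested, with a median of -0.04. Ribosomal protein genes have many pseudogene copies, so single members are uncertain. CACGTG, the E-box that MYC binds, was found in 1 of 18 fallen ribosome biogenesis promoters and in 10.1% of those of tested genes.

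**Figure D5:**
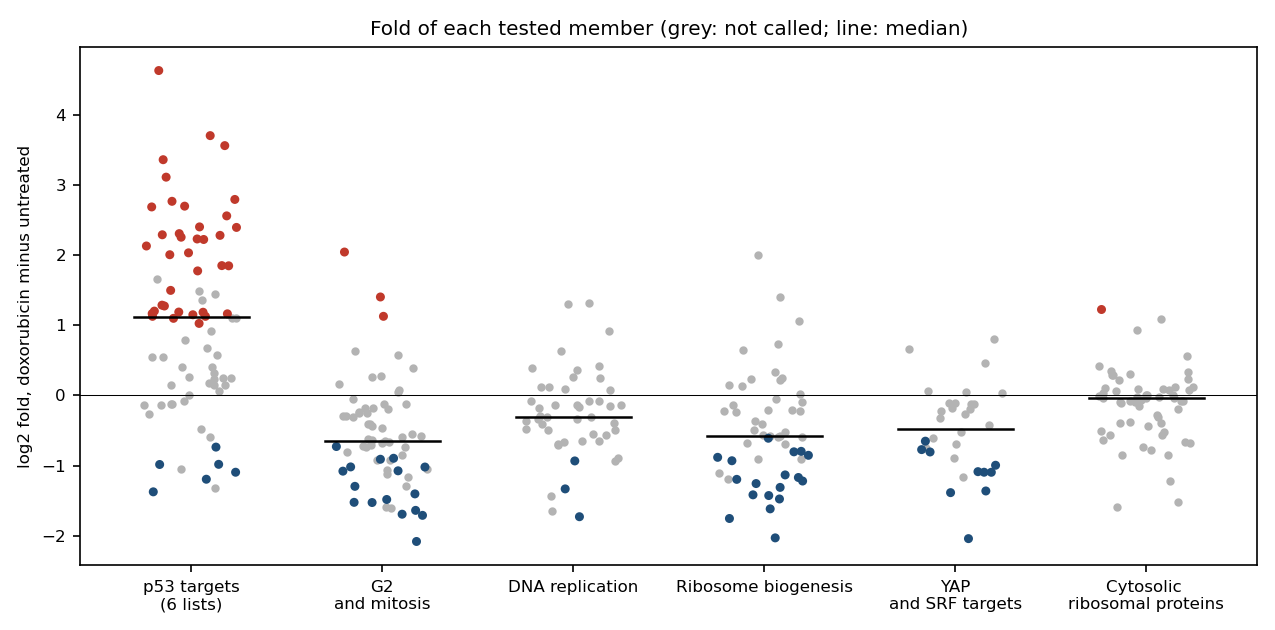
Log2 fold of each tested member, doxorubicin minus untreated (y axis), in the combined p53 target lists and in 5 other lists, with red for genes that rose, blue for genes that fell, grey for the rest and a line at the median. The medians run from 1.12 for p53 targets to -0.65 for G2 and mitosis genes.

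In the list of targets of YAP and SRF, factors under mechanical control, 10 of 32 tested fell and 0 rose, with a median of -0.47 (4 unpaired, 1 without pair 1). Ankrd1, a standard YAP target, read 287, 316 and 311 CPM untreated and 67.4, 68.97 and 85.9 CPM treated (log2 fold -2.04, SE 0.16, adjusted p = 0.00317). Cyr61, a matricellular early gene under the same factors, read 228, 217 and 175 CPM untreated and 81.1, 77.1 and 76.9 CPM treated (log2 fold -1.39, SE 0.16, adjusted p = 0.00837). Itga5, the fibronectin receptor subunit, read 694, 1039 and 999.9 CPM untreated and 290.0, 467 and 313 CPM treated (log2 fold -1.36, SE 0.17, adjusted p = 0.00951). The groups did not overlap in these 3 genes. Thbs1 also passed unpaired, whereas Ctgf (-1.09), Cnn1 (-0.995), Cnn2 (-0.65), Myl9 (-0.77), Flna (-0.81) and Zyx (-1.10) had unpaired adjusted p of 0.0616 to 0.804. Zyx, Cnn1, Ctgf and Flna overlapped between groups, and the folds of Zyx within the pairs were -1.20, -0.77 and -1.31. Actb (-0.61), Actg1 (-0.75), Acta2 (-0.69) and Tagln (-0.10) did not pass.

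The largest loss in CPM was at Hspa8, the constitutive HSC70 chaperone gene, which also hosts snoRNAs. It read 9339, 9087 and 9739 CPM untreated and 2932, 4224 and 3035 CPM treated, a fold of -1.49 (SE 0.18, adjusted p = 0.00868). All treated libraries were well below all untreated ones, although without pair 1 the adjusted p was 0.0992. The actin bundler gene Fscn1 read 857, 1221 and 1206 CPM untreated and 358, 469 and 425 CPM treated (log2 fold -1.38, SE 0.15, adjusted p = 0.00656). Tubb5, a tubulin gene, had a fold of -0.72 with overlapping groups and an unpaired adjusted p of 0.223, and the translation helicase gene Eif4a1 had -0.74 (SE 0.15, adjusted p = 0.0288). In the list of heat shock genes 3 of 28 fell (Hspa8, Hsph1 -1.75 and the chaperonin gene Cct3 -0.80) and 0 rose, and Hspa8 alone passed unpaired.

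Other large falls came from several functions. Npas4, an activity-dependent transcription factor gene, read 20.7, 18.8 and 17.2 CPM untreated and 2.84, 4.93 and 2.07 CPM treated (log2 fold -2.42, SE 0.28, adjusted p = 0.00738). Cmklr1, the chemerin receptor gene, read 35.5, 27.7 and 32.8 CPM untreated and 5.35, 4.69 and 7.36 CPM treated (log2 fold -2.38, SE 0.22, adjusted p = 0.00389). H1f0, which encodes the linker histone H1.0, read 47.01, 62.4 and 53.7 CPM untreated and 12.4, 12.8 and 10.4 CPM treated (log2 fold -2.15, SE 0.20, adjusted p = 0.00389). The groups of each gene stood apart. Cmklr1 overlaps Gm15736 in the annotation. Lrrc32, which encodes GARP, the anchor of latent TGF-beta, read 211, 328 and 411 CPM untreated and 49.2, 86.4 and 93.8 CPM treated (log2 fold -2.04, SE 0.16, adjusted p = 0.00282). Farp1 (-1.99), a guanine nucleotide exchange factor gene, Cdca7 (-1.98) and Ccdc102a (-1.88) completed the reported falls of this size, and Cdca7 alone of them missed the threshold without pair 1 (0.0508).

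Lists named for other stress responses were called in part, and their members can also be p53 targets. In the unfolded protein and integrated stress response list 2 of 37 tested rose and 6 fell (2 and 3 unpaired, 1 and 2 without pair 1). Ddit4, the REDD1 inhibitor of mTORC1, read 5.86, 9.14 and 10.1 CPM untreated and 36.5, 49.2 and 45.6 CPM treated (log2 fold 2.34, SE 0.20, adjusted p = 0.00375). Sesn2, one of the p53 targets listed above, rose too. Trib3, a pseudokinase target of ATF4, read 28.2, 55.2 and 42.5 CPM untreated and 8.36, 11 and 6.32 CPM treated (log2 fold -2.21, SE 0.25, adjusted p = 0.00708). Atf4 (-1.17), Chac1 (-1.94), Pck2 (-1.22), Mthfd2 (-1.01) and Xbp1 (-1.48) also fell, but Atf4, Chac1 and Mthfd2 did not pass unpaired (0.0524 to 0.236). Ddit3 (-0.33), Asns (0.27) and the chaperone gene Hspa5 (-0.22) did not pass. Of NRF2 and antioxidant genes 4 of 28 rose and 1 fell, and 1 passed unpaired, the heme oxygenase gene Hmox1 (log2 fold 1.60, SE 0.28, adjusted p = 0.0212), which missed the threshold without pair 1 (0.083).

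Lipid and sugar metabolism gave more falls than rises. Over all tested genes 8.97% rose and 6.24% fell. In sterol and fatty acid synthesis 1 of 33 tested rose and 5 fell (1 and 3 unpaired). Without pair 1, 0 passed with limma and 7 had an unadjusted p under 0.05. Fdft1, encoding squalene synthase, read 164, 234 and 249 CPM untreated and 57.1, 93.3 and 70.7 CPM treated (log2 fold -1.55, SE 0.17, adjusted p = 0.00708). Dhcr7 (-0.98), Fasn (-1.13) and Stard4 (-1.43) were also among the genes that fell, and Nsdhl rose (1.33). Nsdhl was below 1 CPM in every untreated library, so it could be tested only as a rise. Hexokinase 2, Hk2, read 15.6, 33.8 and 20.01 CPM untreated and 6.44, 6.31 and 5.66 CPM treated (log2 fold -1.76, SE 0.28, adjusted p = 0.017), and with the lactate exporter gene Slc16a3 (-1.18) it gave the 2 falls in 20 glycolysis genes. Of 54 oxidative phosphorylation genes, 0 passed with limma or limma-voom, paired or unpaired, and 11 had an unadjusted paired p under 0.05, with a median log2 fold of 0.08.

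Lysosomal genes rose in 10 of 49 tested with 0 falls and a median of 0.32 (4 unpaired, 2 without pair 1). Beside Hyal1 and Ctsd, Ctsf, encoding cathepsin F, read 3.84, 7.53 and 4.90 CPM untreated and 25.2, 26.8 and 18.5 CPM treated (log2 fold 2.05, SE 0.25, adjusted p = 0.00888). Fuca1, the lysosomal fucosidase gene, read 200.5, 220.0 and 227 CPM untreated and 561, 558 and 448 CPM treated (log2 fold 1.27, SE 0.17, adjusted p = 0.0117). For both all treated libraries were higher. Ctsb (1.33), Laptm4a (1.48), Laptm4b (1.45), Tpp1 (1.16), Scarb2 (0.94) and Man2b1 (0.80) rose in the paired fit, of which Laptm4b also passed unpaired. Of 34 autophagy genes 3 rose, the kinase genes Ulk1 (log2 fold 1.69, SE 0.20, adjusted p = 0.00826) and Ulk2 (1.06) and the p53 target Dram1 (1.24), and Ulk1 alone passed unpaired. The share of rises is near the 8.97% of all tested genes. Dram1 was below 1 CPM in every untreated library, so it could be tested only as a rise. Ulk1 read 19.4, 21.9 and 23.1 CPM untreated and 80.2, 66.2 and 64.8 CPM treated. Without pair 1 the adjusted p of Fuca1 and Ulk1 was 0.0887 and 0.0581.

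Immediate early genes were called in both directions, 8 of 33 higher and 6 lower (2 and 3 unpaired, 1 and 1 without pair 1). Fosl1, an AP-1 subunit, rose (log2 fold 1.07, SE 0.16, adjusted p = 0.0147), and Fos (1.40), Fosb (1.16) and Egr1 (1.10) rose in the paired fit alone (unpaired 0.053 to 0.198). Ier3 (log2 fold -1.05, SE 0.17, adjusted p = 0.017) fell in both fits, as did Cyr61 and Npas4. Klf6 fell (-1.52), and Jun (-0.16), Myc (-0.37) and Dusp1 (0.54) did not pass. In the list of NF-kB and inflammatory genes 5 of 25 rose and 3 fell (3 and 1 unpaired, 1 and 0 without pair 1). Beside Icam1, the receptor gene Cd40 (log2 fold 1.64, SE 0.22, adjusted p = 0.0113) and the cytokine gene Lif (log2 fold 1.81, SE 0.29, adjusted p = 0.0174) passed paired and unpaired, whereas Ccl2 (1.31) and Nfkbie (1.61) did not pass unpaired. Cd40 was below 1 CPM in every untreated library, so it could be tested only as a rise. The inhibitor gene Nfkbia had 0.10 and did not pass. Of 25 interferon response genes 5 rose paired (3 called with limma-voom). Unpaired, 0 passed with limma or limma-voom and 8 had an unadjusted p under 0.05 with limma. Tap1, the peptide transporter of antigen presentation, read 0.533, 3.21 and 5.94 CPM untreated and 10.1, 9.54 and 57.2 CPM treated (log2 fold 2.65, SE 0.42, adjusted p = 0.017, unpaired 0.12), with library 3 far above the other treated ones. Isg15 overlapped between groups (log2 fold 0.96, SE 0.22, adjusted p = 0.0393).

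Matrix genes held 4 rises and 2 falls in 44 tested (1 and 2 unpaired, 1 and 0 without pair 1), near the 8.97% and 6.24% of all tested genes. The main collagen genes Col1a1 (0.10), Col1a2 (0.52) and Col3a1 (0.47) did not pass. Mmp15, a membrane-bound metalloproteinase, read 5.54, 6.01 and 4.69 CPM untreated and 56.6, 61.8 and 54.7 CPM treated (log2 fold 3.30, SE 0.19, adjusted p = 0.00175), with libraries of each group close together. Mmp14, its relative, read 7.25, 40.4 and 18.4 CPM untreated and 17.5, 79.9 and 44.1 CPM treated. These groups overlapped and the fold of 1.14 (SE 0.19, adjusted p = 0.0179) was lost unpaired (0.379). The crosslinking enzyme gene Loxl1 fell (log2 fold -0.89, SE 0.16, adjusted p = 0.022). Among growth factor receptors the kinase genes Ddr1 (1.55), Epha2 (1.19) and Tyro3 (1.11) rose in both fits, while Pdgfrb, the PDGF receptor of fibroblasts, fell from 70.7, 197 and 139 to 36.9, 58.5 and 35.7 CPM (log2 fold -1.54, SE 0.24, adjusted p = 0.017, unpaired 0.0623). In the TGF-beta family list 5 of 26 rose and 3 fell (1 and 2 unpaired, 1 and 1 without pair 1), with Gdf15 the largest rise, Lrrc32 the largest fall and Tgfb3 (log2 fold -0.91, SE 0.15, adjusted p = 0.0195) also lower. The nuclear RNA Neat1 read 12.5, 12.4 and 12.5 CPM untreated and 31.9, 43.9 and 116 CPM treated (log2 fold 2.09, SE 0.37, adjusted p = 0.0212), and treated library 3 was the highest. Malat1, its neighbour, had -0.06 and did not pass.

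The libraries labelled p53-null served to ask where the wild-type response differed from theirs. Trp53, the targeted gene, was read there as well, at 67.8 and 75.6 CPM untreated and 29.9 and 45.6 CPM treated (all 10 libraries scaled together). Those levels were above the 19.9 to 25.4 CPM of untreated wild-type libraries and within or above the 23.7 to 43.4 CPM of treated ones. Trp53 reads were therefore not lower in the libraries labelled p53-null than in wild type. These reads come from the 3' end, and the labels do not say which part of the gene the allele lacks, so they do not check the genotype.

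Between treated and untreated libraries labelled p53-null, 2 of each, 0 of 11090 genes passed with limma and 1246 had an unadjusted p under 0.05. With limma-voom 0 passed (1684 unadjusted), and with same-numbered libraries paired 0 passed (2314 unadjusted). The difference between the responses was tested directly over the 10 libraries, without pairs, and 251 of 11090 genes passed (2.26%), 191 higher (1.72%) and 60 lower (0.541%) in wild type. With library size alone as the scaling 213 were higher and 21 lower. With pairs within each genotype 1044 passed (9.41%), 645 higher (5.82%) and 399 lower (3.6%), and all 251 were among them. The 2 pairs labelled p53-null give a single correlation of deviations between same-numbered libraries, 0.52 over 5558 genes. Leaving out 1 library moved the count of 251 to between 33 (33 higher and 0 lower), without untreated library 1 labelled p53-null, and 470 (239 higher and 231 lower), without untreated wild-type library 1.

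Cdkn1a went from 30.3 to 50.3 mean CPM in the libraries labelled p53-null, a wild-type minus p53-null difference of log2 folds of 2.01 (SE 0.28, adjusted p = 0.00794). Sytl1 went from 1.19 to 0.569 mean CPM there, a difference of 5.64 (SE 0.48, adjusted p = 0.00103). Of the 12 largest wild-type rises 11 differed unpaired and 12 with the pairs, the last being 4432412L15Rik (3.31, adjusted p = 0.0507 unpaired and 0.0132 paired). Cited4 had a fold of 1.75 and Icam1 one of 1.32 in the libraries labelled p53-null, neither past the threshold. Of the 12 largest falls 3 differed unpaired and 9 with the pairs, among them in both fits Cmklr1 (-1.96) and Ccdc102a (-1.65). Both sets of 12 were chosen by wild-type folds from libraries that the test uses again, so these counts are no independent evidence. Ccnb2 (-1.47) and Ankrd1 (-1.002) had adjusted p of 0.175 and 0.1 unpaired and 0.0237 and 0.0383 paired. Hspa8 differed in both fits (-1.68, unpaired adjusted p = 0.0198), going from 4728 to 5549 mean CPM in the libraries labelled p53-null. Bax (1.18) passed in neither, with adjusted p of 0.191 unpaired and 0.0705 paired. These libraries were deeper, at 18099506 to 25970157 reads.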

How the data were processed

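RNA was measured in 6 wild-type MEF libraries, 3 untreated and 3 treated with doxorubicin, and in 4 libraries labelled p53-null used for the difference between genotypes. The authors deposited 1 value per gene symbol for 20207 genes, in headerless files whose scale is near log2. The submitters' processing notes name DESeq and the mouse build mm9, each without a version. For the aligner, annotation and strand, the sources used here give nothing, and the files hold no coordinates of genes. Fragmented RNA was amplified by 15 PCR cycles without molecular identifiers per the labels' protocols, so counting intervals cover counting error only.

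The deposited log2 values lay on 1 curve of whole reads, from which reads were recovered. Beyond the first 250 reads the curve had 23356 distinct values. A whole read was met to within 0.01 by 99.81% of them, and the 45 exceptions, from 108926 reads upwards, missed one by up to 0.408. In simulated data 100% were recovered. Since these reads are computed, limma 3.58.1 in R 4.3.3 was used on log2 of CPM plus 0.5 with the trend option, after scaling by trimmed mean of M values (30% and 5% trimmed). Folds on this scale understate changes of low genes. A gene was tested if 2 or more of the 6 libraries held 1 CPM or more. A gene below 1 CPM in every untreated library could enter only through treated libraries, which set its direction in advance. Counts of risen genes, in the lists and over all tested genes, include such genes. Replicate number was a block in the wild-type fit, since numbers paired the libraries in the files, and not in the difference of responses. In simulated data with these groups, 35.4% of 2-fold and 93% of 4-fold changes passed in wild type, and 4.17% and 67.3% in the difference of responses, over 10065 and 10774 genes. The simulation gave every gene in every group 1 spread, the median of the untreated wild-type libraries. It held no pair effect, so these shares need not hold for the real libraries. Tests are two-sided.

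The rule for named genes took a panel of 7 genes, the 12 largest rises and falls (called with and without the block, mean log2 CPM of at least 3, groups apart), the 10 largest gains and losses in CPM, up to 4 called members of each list by p and up to 6 near-silent genes. Other list members named were chosen after their values were seen, as were Bop1 and the genes named as not passing. The members and lists were chosen with earlier results of these data known. A few genes are not reported here. Promoters are from RefSeq (GRCm38.p6), and 8128 tested genes matched one. Alternatives covered scaling, pseudocount, filter, limma-voom, the block, the libraries fitted, the values as deposited and leaving out each replicate.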

Additional observations from a re-analysis of the deposited data

Results flagged for a closer look

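The response to doxorubicin differed between wild-type cells and those labelled p53-null for 251 genes by the direct test of the difference without pairs (1044 with same-numbered libraries paired), and for 13 of the reported genes with the largest wild-type changes. Those 13 come from genes chosen by their wild-type folds in libraries that the test uses again, so their number is no independent evidence. The wild-type minus p53-null difference of log2 folds was 5.64 for Sytl1, 5.50 for 1700007K13Rik, 4.65 for Ptprv, 4.32 for Cited4, 4.14 for Tbc1d2, 3.68 for Hyal1 and 3.54 for Dcxr. It was 3.52 for Scx, 3.10 for Cox6b2, 2.88 for Klrg2 and 2.27 for Icam1. Of the genes that fell in wild type, Cmklr1 differed by -1.96 and Ccdc102a by -1.65. The adjusted p values from limma ran from 0.00103 for Sytl1 to 0.0463 for Icam1, with 3 wild-type and 2 libraries labelled p53-null per group. Trp53 was read in the libraries labelled p53-null as well, and those reads do not check the genotype. Hyal1, Scx, Ptprv, Tbc1d2, Cmklr1 and 1700007K13Rik share their position with other genes, and their reads cannot be told apart from those.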

How the results depend on the processing

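The count of 1557 genes in wild type stayed within 1.5 times of itself under limma-voom, other scalings, pseudocounts and filters, the values as deposited and all 10 libraries without the block, at 1188 to 1627. It was 778 without the replicate block, 2573 with all 10 libraries and the block, and 297 (without replicate 1) to 1992 (without replicate 2) when a pair was left out, with 810 without replicate 3. The median of all genes moved by less than 0.1 (log2) under every scaling there. The replicate block used the numbers as pairs because same-numbered libraries deviated together, and the labels do not say what they share. Of the 24 genes with the largest rises and falls, all passed under every alternative except 1, Cdca7, without replicate 1. They were chosen among genes called with and without the block whose groups did not overlap, so passing was partly set by that choice. The count of 251 genes whose response differed was 1044 with the replicate block. Leaving out 1 library gave 33 to 470, with 33 and 43 without untreated libraries 1 and 2 labelled p53-null, 73 and 77 without the treated ones, and 470, 96 and 97 without untreated wild-type libraries 1, 2 and 3. In the other alternatives it was 177 to 304. Of the 251, 76.1% were higher in wild type. This share was 91.0% with library size alone, where the median of all genes was 0.22 in place of 0.09, 61.8% with the replicate block, 64.9% with the filter of 5 CPM, and 50.9% (without untreated wild-type library 1) to 100% (without either untreated library labelled p53-null) when 1 library was left out. Of the 1557, 59.0% rose, against 50.7% with the filter of 5 CPM, 68.1% without the block and 82.5% without replicate 1. The libraries labelled p53-null gave 0 genes also with the block and limma-voom, both chosen after seeing the data. The cause of these moves was not tested. Low genes limit the depth, since 9972 genes were not tested and 3606 had no read in wild type.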
